A study of Mus musculus with 16 samples.

Results

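Protocadherin genes were examined in RNA-seq libraries of the mouse dorsal raphe nucleus (DRN), which lies in the midbrain and supplies most of the serotonin axons of the forebrain. All genes whose symbol begins with Pcdh were taken from the table of expression values, which gave 47 of the 14504 listed genes. They comprised 36 clustered genes, which lie in the alpha, beta and gamma gene clusters of chromosome 18, and 11 non-clustered genes. The clustered genes were split into 1 alternate alpha gene (Pcdha9), 2 C-type alpha genes, 16 beta genes, 11 gamma A genes, 3 gamma B genes and 3 C-type gamma genes. The non-clustered genes were split into 4 delta-1 genes (Pcdh1, Pcdh7, Pcdh9 and Pcdh11x), 5 delta-2 genes (Pcdh8, Pcdh10, Pcdh17, Pcdh18 and Pcdh19), and Pcdh15 and Pcdh20. The GENCODE vM21 annotation of GRCm38 holds 69 protein-coding genes of the family, of which 12 are alternate alpha genes, and the members without a row were not analyzed here.

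The 16 libraries came from adult male C57BL/6 mice in 6 groups. Controls, which were housed singly before the experiment, gave 3 saline (con_sal) and 3 dexamethasone (con_dex) libraries. The other mice were defeated by CD1 males over 30 days and were classed by their behavior as passive coping (PS, dep1 in the labels) or active coping (AS, dep2). PS mice gave 2 saline and 3 dexamethasone libraries, and AS mice 3 saline and 2 dexamethasone libraries. Dexamethasone (DEX), a synthetic agonist of the glucocorticoid receptor, was given at 2 mg/kg, and tissue was taken 6 h after the injection of DEX or saline in every group. Other samples of the study, among them DEX-treated samples of stressed mice removed for low Tph2, are not analyzed here. The p-values measure the spread between these libraries only. Single libraries are named by group and animal number, as in con_sal_102.

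Protocadherins are cell-adhesion proteins with extracellular cadherin repeats that bind the same protein on a facing membrane. In the clusters, each alternate first exon has its own promoter, and neurons switch on different promoters in a largely random manner with the help of the insulator protein CTCF and cohesin, so that neighboring cells carry different sets of isoforms. The C-type genes at the end of the alpha and gamma clusters are expressed more uniformly, and Pcdhac2 is known as the main alpha isoform of serotonin neurons, whose axons need it to spread evenly over their target areas. The non-clustered delta protocadherins act in axon growth, cell sorting and synapse formation, through contacts with the actin-regulating WAVE complex in several members.

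Values are normalized counts, that is, reads per gene divided by 1 size factor per library, and the libraries held 38207157 to 62447298 reads in the listed genes. The lowest value of any member in any library was 51.9 normalized counts, so that all 47 members were detected in all 16 libraries. All 12 glucocorticoid target genes checked were higher after DEX in the average over phenotypes (median log2 difference 1.09). Tph2, which encodes the serotonin-synthesizing enzyme, ranged from 91764 to 182191 normalized counts. The study had removed samples with low Tph2, so high values in the remaining libraries are no independent check of the dissection. Libraries stood apart in the family, though not only there. The lowest of the 16 values fell in con_sal_104 for 14 members, in AS_sal_40 for 12 and in con_sal_114 for 10. The share of all genes with their lowest value in each library is not given here. Of all listed genes, 248 had no reads in con_sal_104 and 228 in AS_sal_40, against 56 (con_dex_122) to 171 (AS_dex_42) in the other libraries. The score of 12 serotonin neuron markers, a mean log2 deviation from the gene means, was highest in con_sal_104, at 0.34. In bulk tissue, fewer cells of a type and less RNA per cell cannot be told apart.

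To learn which protocadherins dominate in the DRN, levels were expressed per kilobase (kb) of exon. This comparison depends on how shared exons are treated. Each alpha gene joins its own first exon to 3 constant exons, and exon bases of each alpha member were annotated for 13 other genes. Exon bases of each gamma member were annotated for 25 other genes. Only 46.5% to 51.4% of the exon bases of the alpha members were private to the gene, while beta genes have a single exon each, of which at least 93.1% was private, and delta genes shared no exon bases. The handling of reads that fall in several genes is not stated. The values of Pcdha9 were 3.63% to 5.66% of those of Pcdhac2, so reads from the constant exons had not been given to all alpha genes alike. Likewise Pcdhga10 was 7.04% to 17.6% of Pcdhgc4. Levels per kb of private exon are therefore given beside those per kb of all exons.

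Pcdhac2 (ENSMUSG00000102697.1, GRCm38 chromosome 18, 37143503 to 37187657) had the highest level per kb of private exon, 1736 ± 253 normalized counts per kb (SD, n = 16). Per kb of all exons its mean was 893 ± 130 (SD, n = 16), below the means of Pcdh9 at 973 ± 97.9 and Pcdh10 at 911 ± 111. Their libraries overlapped on this scale, with 742 to 1158 for Pcdhac2, 817 to 1131 for Pcdh9 and 725 to 1087 for Pcdh10. Their order on this scale is therefore not settled. On the private scale Pcdhac2 exceeded Pcdh9 in 16 of 16 libraries. It alone made up 23.8% to 33.6% of the private per-kb signal of the 36 clustered members (median 26.7%), against 12.6% to 20.1% for the 16 beta genes together and 23.7% to 32.3% (median 29.5%) for the gamma A and gamma B genes together. Pcdhac1, the other C-type alpha gene, reached 519 ± 92.7 per kb of private exon (SD, n = 16), and the only alternate alpha gene, Pcdha9, 92.5 ± 12.96.

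Among the delta genes, Pcdh9 (ENSMUSG00000055421.8, chromosome 14, 93013410 to 93890679) and Pcdh10 (ENSMUSG00000049100.15, chromosome 3, 45378398 to 45435623) did not differ beyond their spread, with Pcdh9 higher in 12 of 16 libraries. Pcdh17 (ENSMUSG00000035566.7, chromosome 14, 84443563 to 84539002), known from presynaptic sites, followed at 620 ± 111 normalized counts per kb. Pcdh10 was above it in all 16 libraries. Pcdh17 and the 5 members after it on the private scale (Pcdh7, Pcdhac1, Pcdh1, Pcdhgc4 and Pcdhgc3) formed a chain in which no neighbor differed from the next by more than 1 SD of their log2 ratio. Pcdh19 (ENSMUSG00000051323.16, chromosome X, 133582860 to 133688987), the gene mutated in an X-linked epilepsy, lay at 279 ± 52.4 per kb, and Pcdh11x at 187.

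The leading members of the other subgroups were lower. Pcdhgc4 (ENSMUSG00000023036.14), the C-type gamma gene that is known to promote the survival of interneurons, had 512 ± 101.7 normalized counts per kb of private exon (SD, n = 16). Pcdhgb6 had 202 ± 39.2 and Pcdhga6 186 ± 33.6, the latter within its spread of Pcdhga7 at 185 ± 23.8. Per kb of all exons Pcdhga7 led the gamma A genes, at 110 ± 14.2. Pcdhb9 (ENSMUSG00000051242.1) led the beta genes at 138 ± 12.1, and Pcdhb6, with 36.1 ± 12.6, had the lowest mean, though Pcdhb16 was above it in only 8 of 16 libraries and did not differ from it beyond their spread. Pcdh20 led the remaining non-clustered genes at 126 ± 20.9.

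**Figure D1:**
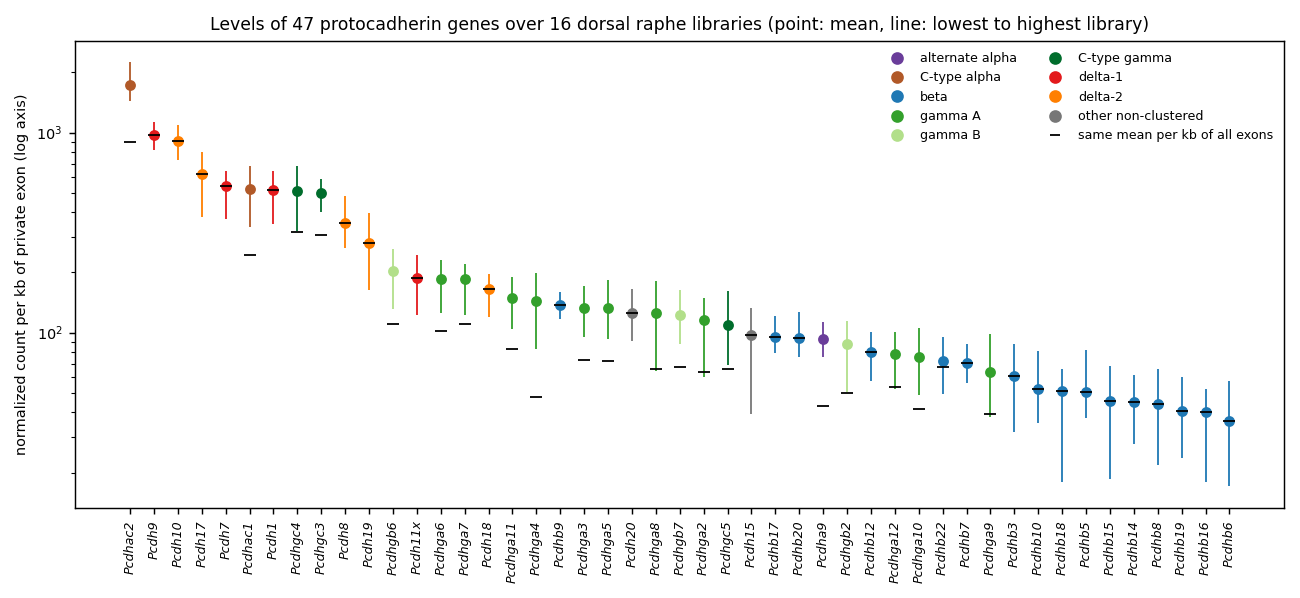
Levels of the 47 protocadherin genes in 16 libraries, in normalized counts per kb of private exon on a log axis; points are means, vertical lines run from the lowest to the highest library, colors mark subgroups and black dashes give the mean per kb of all exons. Pcdhac2 leads at 1736 per kb of private exon and beta genes fill most of the low end, down to 36.1 for Pcdhb6.

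The promoters of delta-2 genes are shown because these genes lie apart in the genome, share no exons, and still varied together within groups, with a median correlation of 0.61 over 10 pairs (described with the covariation). The windows are the 250 bases before the RefSeq start of each gene (GRCm38.p6), printed 5′ to 3′ on the strand of the gene. Capitals mark AGAACA or its reverse complement TGTTCT, the core hexamer of the sequence that the glucocorticoid receptor binds, and GGGCGG or CCGCCC, the GC box. Both strands were searched, and the 2 motifs do not overlap. Pcdh8 and Pcdh17 were the closest pair, Pcdh10 was the most abundant, and Pcdh18 had the smallest p after Pcdh11x in the averaged DEX effect.
Pcdh8 (chr14:79771313-79771562, minus strand): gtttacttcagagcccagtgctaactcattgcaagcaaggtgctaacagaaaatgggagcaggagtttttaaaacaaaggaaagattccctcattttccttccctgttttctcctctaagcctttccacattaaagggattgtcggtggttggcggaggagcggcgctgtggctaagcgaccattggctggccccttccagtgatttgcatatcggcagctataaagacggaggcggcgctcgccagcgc
Pcdh17 (chr14:84443313-84443562, plus strand): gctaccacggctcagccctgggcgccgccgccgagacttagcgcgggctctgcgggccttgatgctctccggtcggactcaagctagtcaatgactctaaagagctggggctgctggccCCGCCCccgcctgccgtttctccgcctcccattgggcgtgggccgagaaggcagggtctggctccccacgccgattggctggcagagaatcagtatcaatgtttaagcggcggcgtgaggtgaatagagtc
Pcdh10 (chr3:45378148-45378397, plus strand): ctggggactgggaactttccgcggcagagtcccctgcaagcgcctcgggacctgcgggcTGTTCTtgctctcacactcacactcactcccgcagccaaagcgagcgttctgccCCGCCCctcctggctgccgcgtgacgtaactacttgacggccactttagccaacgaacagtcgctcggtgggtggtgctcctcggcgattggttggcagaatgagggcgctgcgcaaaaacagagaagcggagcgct
Pcdh18 (chr3:49757317-49757566, minus strand): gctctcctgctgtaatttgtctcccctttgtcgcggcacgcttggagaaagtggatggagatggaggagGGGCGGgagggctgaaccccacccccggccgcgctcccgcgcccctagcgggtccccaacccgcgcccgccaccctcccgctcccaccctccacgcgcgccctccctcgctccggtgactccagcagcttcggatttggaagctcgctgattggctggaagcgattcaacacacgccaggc
A GC box was found in the windows of Pcdh17, Pcdh10, Pcdh18 and Pcdh19 and none in that of Pcdh8, while 32.7% of the 32851 promoters in the table hold one. The hexamer was found in Pcdh10, and 16.1% of all promoters hold it. The promoter of Pcdh11x was not examined.

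To see which protocadherins respond to glucocorticoid receptor activation, DEX was compared with saline within each phenotype and on average over the 3 phenotypes. Pcdh11x, a delta-1 protocadherin encoded on the X chromosome (ENSMUSG00000034755.18, 120290259 to 120910619), was the only member that limma called (adjusted p under 0.1). It rose in controls and in the average over phenotypes, and no other member passed in any phenotype. The count was 1 of 47 members in controls, where 1.26% of all genes tested were called, and 1 of 47 in the average, where 4.31% were. At an unadjusted p under 0.05, 5 members passed in controls (10.6% against 12.1% of all genes) and 3 in the average (6.38% against 14.02%).

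In control saline libraries Pcdh11x had 2074.5 (con_sal_102), 1707.5 (con_sal_104) and 1952 (con_sal_114) normalized counts. In control DEX libraries it had 2648 (con_dex_101), 2952 (con_dex_116) and 3394 (con_dex_122). All control DEX libraries thus lay above all control saline libraries. The mean went from 1911 ± 187 (SD, n = 3) to 2998 ± 375 (SD, n = 3), a log2 difference of 0.65 with a standard error (SE) of 0.13 (limma adjusted p 0.0307; edgeR 0.0254; DESeq2 0.000675).

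In PS mice Pcdh11x stood at 2547 and 2594 normalized counts after saline and at 3218, 2828 and 2886 after DEX. These groups did not overlap either, but the log2 difference of 0.21 (SE 0.14) was not called (limma adjusted p 1). In AS mice the saline libraries had 2256, 2432 and 2769 normalized counts and the DEX libraries 2292 and 3077, and the groups overlapped. The difference there was 0.10 (SE 0.14, limma adjusted p 0.779). Averaged over phenotypes, the log2 difference was 0.32 (SE 0.08, limma adjusted p 0.0464). Groups of 2 or 3 libraries often parted without overlap. In controls 4 of 47 members lay higher and 2 lower after DEX in this way, against 8.51% and 7.43% of all genes. In PS mice 1 lay higher and 8 lower, against 11.2% and 10.1%. In AS mice 6 lay higher and 3 lower, against 15.1% and 14.8%.

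The calls of Pcdh11x depended on single libraries. In controls the call was lost without con_sal_104 (adjusted p 0.143) or con_dex_122 (0.206), in a fit of the control groups alone (0.18) and with weights for the libraries (0.114), while over the alternative fits to all libraries or the control groups the log2 difference stayed between 0.60 and 0.66. In the average it was lost without con_dex_122 (0.106), PS_sal_62 (0.124), PS_sal_68 (0.128) or AS_dex_42 (0.227), and with the serotonin marker score as a covariate (0.159), while the log2 difference stayed between 0.30 and 0.33 over the alternative fits and between 0.25 and 0.39 when libraries were left out in turn. Microglia markers also moved with DEX: 3 of 7 were called lower in the average, and their score ran from 0.15 to 0.18 in con_sal and from -0.27 to -0.17 in con_dex. Within groups, Pcdh11x correlated with the microglia score at r = 0.10 over 16 libraries. The part of microglia in the difference was not tested. Of the other marker lists, 2 of 12 serotonin and 2 of 6 oligodendrocyte markers were called lower and 1 of 4 oligodendrocyte precursor markers higher in the average, and 0 in the remaining lists. Of all genes, 4.31% were called in the average, and lists this short give only rough shares. In the saline comparisons 0 markers of any list were called.

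**Figure D2:**
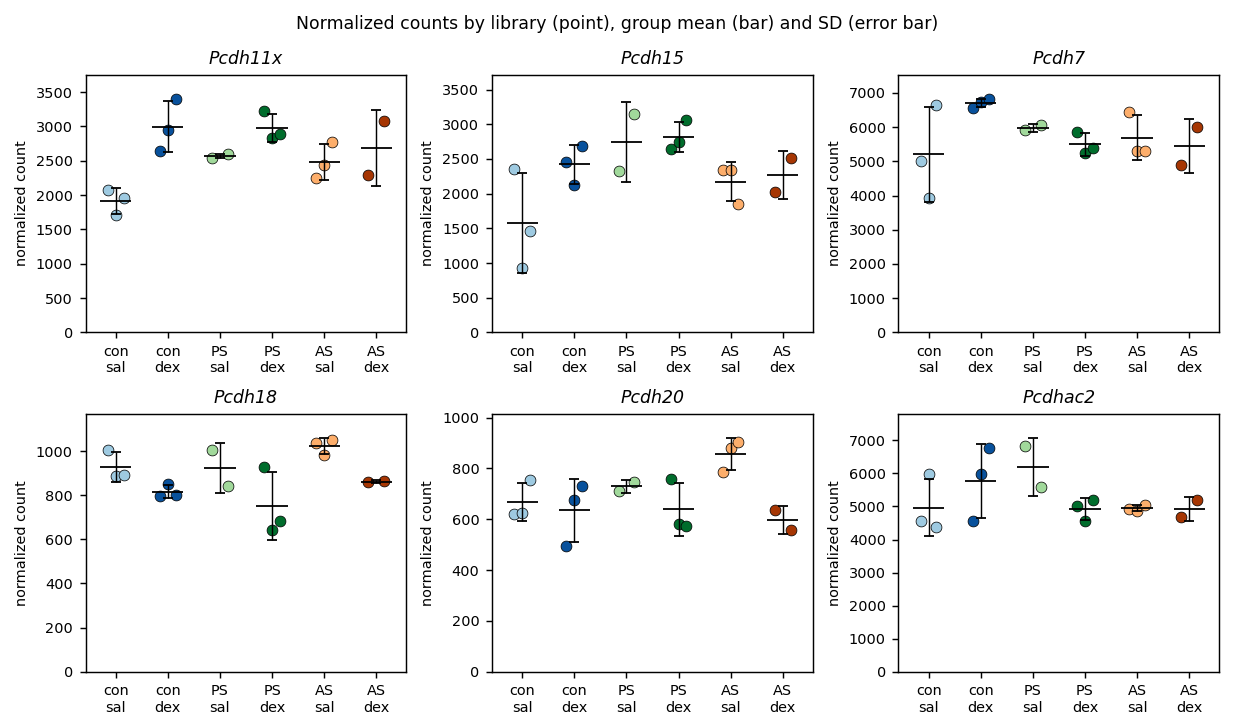
Normalized counts of 6 protocadherin genes in each library (points) of the 6 groups, with group means (bars) and SD (error bars); each vertical axis starts at 0. Pcdh11x lies at 1707.5 to 2074.5 in con_sal and at 2648 to 3394 in con_dex, and Pcdh15 spreads from 928 to 2349 within con_sal.

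Several other members had larger or similar differences but did not pass. Pcdh15, a protein of the hair-cell tip link that is also expressed in oligodendrocyte precursors, had 2349, 928 and 1460 normalized counts in con_sal and 2462, 2129 and 2683 in con_dex. The groups overlapped because con_sal_102 lay within the DEX range. The log2 difference was 0.71 (SE 0.25, limma adjusted p 0.287), and it was called when con_sal_102 was left out (log2 1.05, adjusted p 0.0285). Without con_sal_104, the lowest library, the difference was 0.38 (adjusted p 0.901). Pcdh7, chosen after its values were seen, had 5017, 3927 and 6659 in con_sal and 6570, 6727 and 6817 in con_dex, a difference of 0.40 (SE 0.15, adjusted p 0.319). It was called when con_sal_114, the saline library within the DEX range, was left out.

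Pcdh18, a delta-2 gene (ENSMUSG00000037892.13, chromosome 3, 49743296 to 49757325), had a lower mean after DEX in each phenotype, though none of the differences was called by limma. It had 1006, 886 and 892 normalized counts in con_sal against 796, 852 and 801 in con_dex. In PS mice the values were 1005 and 843 after saline against 926, 641 and 685 after DEX, and in AS mice 1036.5, 983 and 1051 against 858 and 866. DEX libraries were all below saline libraries in controls and in AS mice, and the groups overlapped in PS mice. The averaged log2 difference was -0.25 (SE 0.08, 95% interval -0.42 to -0.07), with an adjusted p of 0.162 by limma and 0.164 by edgeR. By DESeq2 the adjusted p was 0.093, and with library weights 0.0239, so that the call depended on the test.

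Pcdh20 was named for DEX in AS mice. It had 786, 881 and 902 normalized counts in AS_sal and 636.5 and 557 in AS_dex, with no overlap, a log2 difference of -0.52 (SE 0.18, limma adjusted p 0.368). In controls the saline values of 620, 626 and 753 overlapped with the DEX values of 496, 675 and 732. The averaged difference was -0.27 (SE 0.10, limma adjusted p 0.225). With library weights, Pcdh20 was called both in AS mice (adjusted p 0.0427) and in the average (0.0698).

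No clustered gene was called after DEX by limma without library weights, edgeR or DESeq2 over all libraries, while with library weights limma called Pcdhb17 and Pcdhb5 in AS mice. In controls, 23 of the 36 lay above 0 (50.7% of all genes), with a median log2 difference of 0.07. In PS mice 11 of 36 did (48.9% of all genes), with a median of -0.06, and in AS mice 24 of 36 (49.0% of all genes), with a median of 0.10. The median of all 47 members in AS mice, also 0.10, was -0.01 with library weights, -0.02 with the serotonin covariate and -0.06 without AS_sal_40. In controls the median of all 47 members was 0.14, and 0.02 without con_sal_104. All 3 C-type gamma genes were below 0 in PS mice (-0.44 to -0.11) and above 0 in AS mice (0.11 to 0.38). They share exons and are not 3 independent observations. Their score in AS saline mice was 0.23 (AS_sal_8), 0.01 (AS_sal_14) and -0.48 (AS_sal_40). After DEX it was 0.16 and 0.20, below AS_sal_8. In PS mice the score was 0.43 and 0.16 after saline and ran from -0.06 to 0.11 after DEX. Over all 47 members, 0 were called in PS mice against 0.703% of all genes and 0 in AS mice against 0.689%. At an unadjusted p under 0.05, the counts were 0 in PS (4.69% of all genes) and 1 in AS (2.13% of members against 9.36% of all genes), and edgeR and DESeq2 also called 0 in both.

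The 2 members with the smallest p in PS mice were Pcdh18 and Pcdha9. Pcdha9, the alternate alpha gene, had 247 and 281 normalized counts in PS_sal and 199, 214 and 189 in PS_dex, which did not overlap (log2 difference -0.39, SE 0.19, limma adjusted p 1). In AS mice the second gene was Pcdhga3, with 392, 308 and 248 in AS_sal and 436 and 443 in AS_dex (log2 difference 0.50, SE 0.27, limma adjusted p 0.551). AS_sal_40 was also the lowest AS saline library for Pcdhgc5, Pcdhga6 and Pcdhga8.

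Pcdhac2, the isoform known from serotonin axons, was not called under any contrast. It had 4561, 5971 and 4371 normalized counts in con_sal, 4553, 5993 and 6760 in con_dex, and 6820 and 5584 in PS_sal. In PS_dex the values were 5026, 4555 and 5202, in AS_sal 4930, 4862 and 5052, and in AS_dex 4673 and 5190. The PS saline values exceeded those of PS DEX and AS saline mice without overlap, as they did for 10.1% and 12.7% of all genes. The averaged log2 difference with DEX was -0.04 (95% interval -0.24 to 0.15, limma adjusted p 0.853). In PS mice it was -0.33 (SE 0.16, limma adjusted p 1).

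The remaining abundant members had averaged DEX differences near 0. The averaged log2 difference was -0.02 (SE 0.07) for Pcdh9, 0.04 (SE 0.09) for Pcdh10, 0.09 (SE 0.14) for Pcdh17 and -0.09 (SE 0.14) for Pcdh19. Their limma adjusted p-values ran from 0.766 to 0.928. The average held differences of opposite sign. Pcdh9 had 6215, 6008 and 6427 normalized counts in con_sal and 6506, 7547 and 7449 in con_dex, which did not overlap, and a log2 difference of 0.20 (SE 0.11) in controls against -0.19 (SE 0.13) in PS mice. Pcdh19 had 0.21 (SE 0.22) in controls and -0.47 (SE 0.24) in PS mice. None of these was called by limma. Pcdhgc4 and Pcdhb9, the leaders of their subgroups, had -0.06 (SE 0.14) and -0.01 (SE 0.09).

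**Figure D3:**
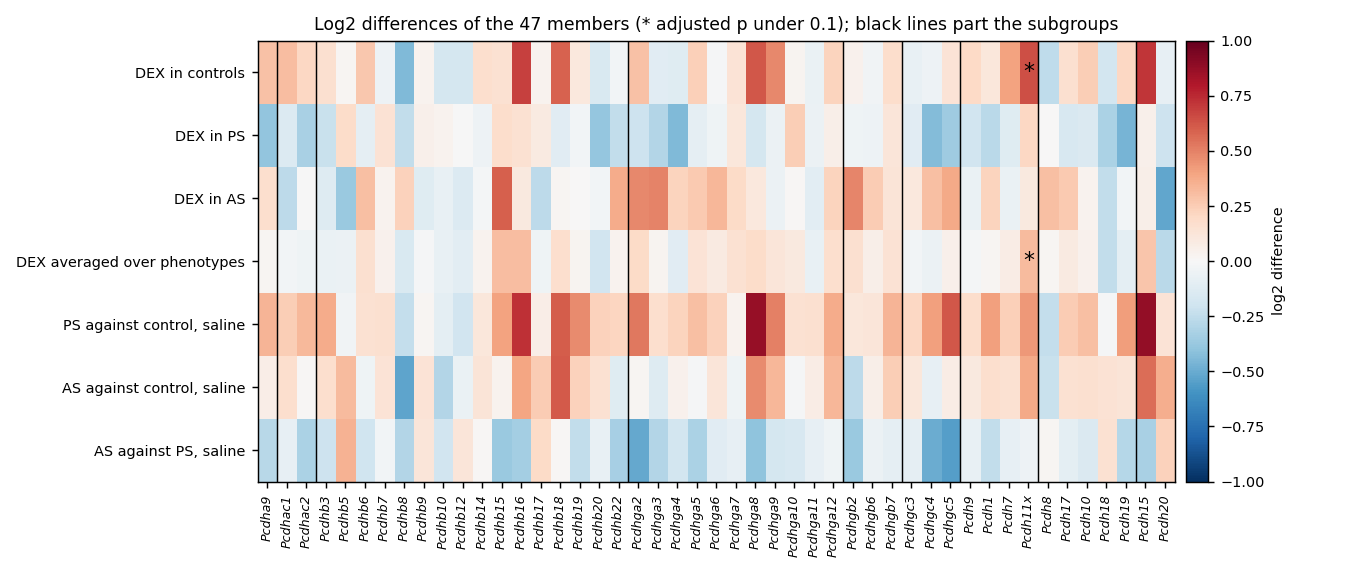
Log2 differences of the 47 members (columns, parted into subgroups by black lines) in 7 comparisons (rows); red is higher, blue is lower, the color scale ends at 1 and -1, and an asterisk marks an adjusted p under 0.1. The 2 asterisks stand at Pcdh11x, in controls (0.65) and in the average over phenotypes (0.32).

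To see whether chronic defeat alone altered the family, saline-treated PS and AS mice were compared with saline-treated controls. No member was called by limma, edgeR or DESeq2, and 0% of all 14504 genes were called by limma in either comparison. Most members nevertheless lay on the same side. In PS mice 41 of 47 members were above controls, where 51.0% of all genes were, with a median log2 difference of 0.23 against 0.0066 over all genes. In AS mice 35 of 47 were above controls, where 53.9% of all genes were, with a median of 0.13 against 0.016. In PS mice the regulators of the clusters had a median of 0.195 and other long cadherin genes 0.59 (lists described below). Signaling partners had -0.11, WAVE genes -0.04, shedding and cleavage genes -0.03, and classical cadherins and catenins 0.03. The shift in PS mice was therefore not particular to the protocadherins. Without overlap, 7 members lay higher and 0 lower in PS mice, against 14.3% and 14.2% of all genes. In AS mice 2 lay higher and 1 lower, against 2.38% and 2.11%. The score of all 47 members ran from -0.30 to 0.10 in con_sal and from 0.04 to 0.21 in PS_sal, which overlapped. These comparisons share the 3 control libraries, among which con_sal_104 and con_sal_114 had the lowest values of 14 and 10 members.

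In PS mice 4 members had an unadjusted p under 0.05, all higher, and the share of 8.51% was near the 7.67% of all genes. The 2 smallest p-values belonged to Pcdh15 and Pcdh11x. Pcdh15 had 2331 and 3150 normalized counts in PS_sal, the lower of which was just below con_sal_102 (log2 difference 0.88, SE 0.28, limma adjusted p 0.571). Without con_sal_102, Pcdh15 was called (log2 1.22, adjusted p 0.089), and without con_sal_104 the difference was 0.55 (adjusted p 0.88). Pcdh11x was higher in both PS saline libraries than in any control saline library, with a log2 difference of 0.43 (SE 0.14, limma adjusted p 0.571).

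By subgroup, all 11 gamma A genes (0.04 to 0.87), all 3 gamma B genes, all 3 C-type gamma genes (0.21 to 0.62) and all 4 delta-1 genes (0.18 to 0.43) were above 0 in PS mice. Of the 16 beta genes 12 were, with a median log2 difference of 0.16. The median over the 47 members was 0.19 without con_sal_104, 0.18 without PS_sal_68 and 0.33 without con_sal_102. Genes of the clusters share libraries and partly exons, so these counts are not counts of independent observations.

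In AS mice, 3 members had an unadjusted p under 0.05 (6.38%, against 2.39% of all genes). Pcdh11x lay above every control saline library in all 3 AS saline libraries (log2 difference 0.38, SE 0.13, limma adjusted p 0.998), and so did Pcdh20 (0.36, SE 0.16, limma adjusted p 0.998). The median over the members in AS mice depended on single libraries: it was 0.01 without AS_sal_8, 0.07 without con_sal_104, 0.23 without con_sal_102 and 0.26 without AS_sal_40.

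Between the coping phenotypes under saline, 38 of 47 members were lower in AS than in PS mice, while 50.4% of all genes were higher. The median log2 difference of the members was -0.14, and it was -0.02 without AS_sal_40 and -0.06 without PS_sal_68. None was called by limma, edgeR or DESeq2 (background 0%), and 0 had an unadjusted p under 0.05 (3.41% of all genes). The 2 smallest p-values were those of Pcdhgc5 and Pcdhac2. Pcdhgc5, a C-type gamma gene, had 745 and 560 normalized counts in PS_sal and 581, 445 and 333 in AS_sal, which overlapped (log2 difference -0.55, SE 0.26, limma adjusted p 0.728). For Pcdhac2 the log2 difference was -0.32 (SE 0.16, 95% interval -0.67 to 0.03, limma adjusted p 0.728), and without PS_sal_62 it was -0.17.

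Under DEX the phenotypes differed less in sign. Members above 0 numbered 25 of 47 when PS was set against control, 25 when AS was set against control and 28 when AS was set against PS, with medians of 0.02, 0.01 and 0.05 on the log2 scale. The sign of these medians was not stable: with library weights the first and the second were -0.05 and -0.04, with the serotonin covariate -0.03 and -0.04, and without single libraries the 3 medians ran from -0.08 to 0.09, from -0.05 to 0.11 and from -0.01 to 0.11. No member was called by limma, edgeR or DESeq2, and 0 had an unadjusted p under 0.05 in any of the 3, where 1.23%, 3.502% and 1.70% of all genes had. The background called by limma was 0%, 0.00689% and 0%. Between PS and control the smallest p-values were those of Pcdhb7 (log2 difference 0.36, SE 0.18) and Pcdha9 (-0.34, SE 0.17). Between AS and control they were those of Pcdhgc3 (0.29, SE 0.15) and Pcdhga6 (0.46, SE 0.25), and between AS and PS those of Pcdhga3 (0.50, SE 0.27) and Pcdhb20 (0.29, SE 0.19).

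Whether the DEX difference itself depended on phenotype was tested by interaction terms. None of the 47 members was called by limma, edgeR or DESeq2, and the background called by limma was 0% in each. For PS against control, 5 members had an unadjusted p under 0.05 (10.6%, against 2.10% of all genes), all with a smaller or opposite DEX difference in PS mice, and 36 of 47 were below 0 (median -0.22 against -0.0041 over all genes, -0.35 without con_sal_102 and -0.13 without con_sal_104). The smallest p belonged to Pcdha9, at -0.69 (SE 0.25, limma adjusted p 1), which was above saline after DEX in controls and below it in PS mice without overlap. Pcdhac2 followed at -0.54 (SE 0.22, limma adjusted p 1). These comparisons share the con_sal libraries, so that low control saline values enter both the DEX difference in controls and the interaction. The median of this interaction was -0.19 for the regulators of the clusters and -0.33 for other long cadherin genes. It was 0.11 for signaling partners, -0.11 for WAVE genes, 0.006 for shedding and cleavage genes, and -0.10 for classical cadherins and catenins.

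For AS against control the smallest p-values were those of Pcdh11x (-0.55, SE 0.19, limma adjusted p 0.941) and Pcdh7 (-0.46, SE 0.23, limma adjusted p 0.941), and 1 member had an unadjusted p under 0.05 (2.13%, against 4.02% of all genes). The DEX call of Pcdh11x in controls is thus not shown to differ from its DEX difference in stressed mice. For AS against PS, 0 members had an unadjusted p under 0.05 (2.90% of all genes), and Pcdha9 (0.56, SE 0.26) and Pcdhga3 (0.79, SE 0.38) came first, both with a limma adjusted p of 0.869.

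Covariation within groups was described next, as Pearson correlations over the 16 libraries of deviations from group means. All correlations rest on the same 16 libraries, which share tissue composition and depth, and within the alpha and gamma clusters on partly shared exons. The mean correlation was 0.29 over the 1081 member pairs and 0.00085 over all pairs of the 14504 genes. Scaling by size factors pulls the mean over all pairs toward 0. It therefore does not show whether other genes of the same cell types covary less than the members. The median over member pairs was 0.32, and 0.26 without AS_sal_40, the library farthest from its group.

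The C-type gamma genes correlated at a median of 0.85 (3 pairs), the gamma A genes at 0.69 (55 of 55 pairs above 0) and gamma A with C-type gamma genes at 0.73. Beta genes, which share no constant exons, correlated at 0.52 over 120 pairs, and genes that neighbor each other in the beta cluster at 0.59 over 15 pairs against 0.496 over the other 105. The delta-2 genes, which lie on 3 chromosomes in these data, correlated at 0.61. The closest pair there was Pcdh8 and Pcdh17 (r = 0.89), and Pcdh18 and Pcdh19 were the least close (r = 0.18).

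For 19 of the 47 members the most similar member was in the same subgroup. The highest correlations in the family were those of Pcdhga8 and Pcdhga3 with Pcdhgc4 (r = 0.93 each), Pcdhga5 with Pcdh10 (0.92) and Pcdhb19 with Pcdh19 (0.92). Pcdhac1 and Pcdhac2 correlated with each other at 0.83 and with beta genes at a median of -0.44, down to -0.79 for Pcdhac2 with Pcdhb12. Pcdh11x had no close partner, its highest correlation being 0.44 with Pcdh20.

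**Figure D4:**
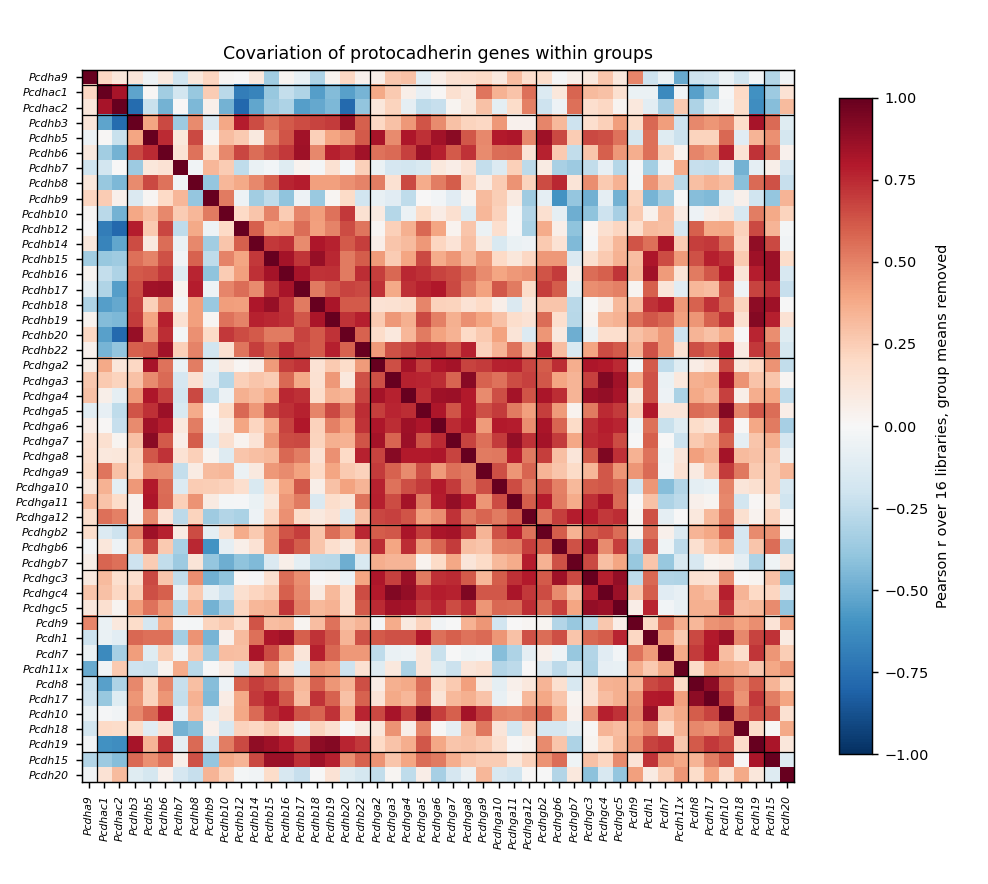
Pearson correlations between the 47 members over 16 libraries after removal of group means (red positive, blue negative), in the order of the subgroups, which black lines part. The gamma genes form a red block (median 0.69 within gamma A), and Pcdhac1 and Pcdhac2 are blue against most beta genes (median -0.44).

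The C-type alpha genes varied with the serotonin neuron markers. Pcdhac2 correlated with the score of 12 serotonin neuron markers at r = 0.78 (Spearman rho 0.70, n = 16 libraries), and Pcdhac1 at r = 0.74 (rho 0.73). Without the 2 libraries with the most extreme scores the values were 0.68 and 0.67. A higher correlation was found for 0.786% and 1.32% of all genes. Pcdhac2 was positively related to all 12 markers singly, from 0.38 for Lmx1b to 0.76 for Slc6a4, the serotonin transporter. With Tph2 alone, the gene used by the study to remove samples, r was 0.38 for Pcdhac2 and 0.29 for Pcdhac1.

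The beta genes ran the other way. Their correlations with the serotonin score had a median of -0.60, and 15 of 16 were below 0. Without the 2 libraries with the most extreme scores the median was -0.51. Pcdhb20 had -0.83 and Pcdh19, a delta-2 gene, -0.81. Gamma A genes had a median of -0.03. Several members followed markers of GABA neurons, Gad1, Gad2 and Slc32a1: Pcdhb6 at r = 0.90, Pcdhb22 at 0.88, Pcdh10 at 0.84 and Pcdhga5 at 0.83. These members were named for their high r, and the score rests on only 3 markers. Within PS_dex alone the GABA score ran from -0.54 (PS_dex_64) to 0.34 (PS_dex_6). Whether these r values hang on such libraries, or are unusual among all genes, is not shown here. Pcdh15 followed the oligodendrocyte precursor markers at 0.69, though at 0.43 without the 2 most extreme libraries. Since the marker scores come from the same libraries as the members, these relations describe how the dissected pieces differed, and their source was not tested.

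**Figure D5:**
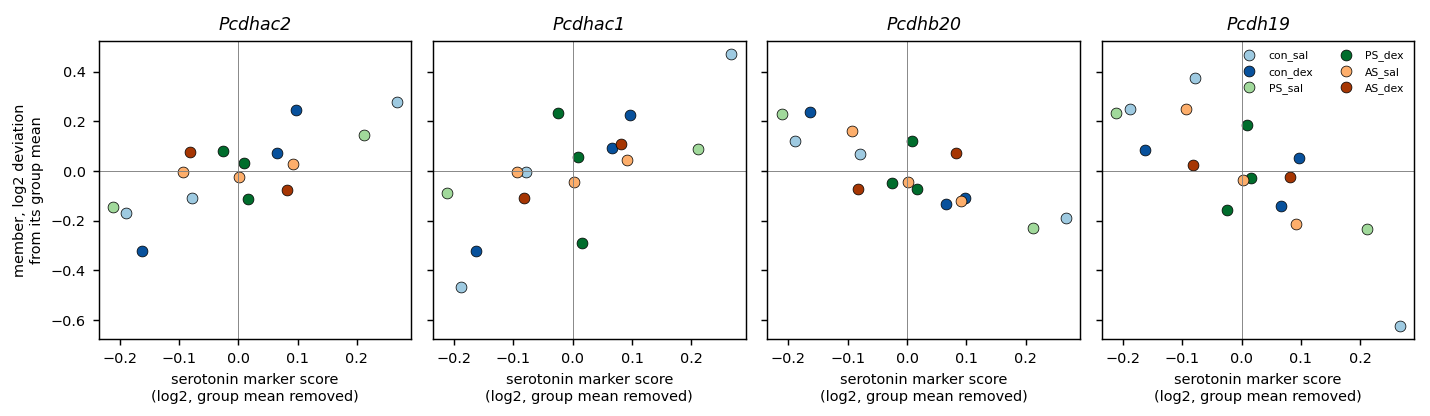
Log2 deviation of Pcdhac2, Pcdhac1, Pcdhb20 and Pcdh19 from their group means (vertical axes) against the score of 12 serotonin neuron markers with group means removed (horizontal axes), 1 point per library, colored by group. Pcdhac2 (r = 0.78) and Pcdhac1 (0.74) were positively related to the score and Pcdhb20 (-0.83) and Pcdh19 (-0.81) negatively.

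Genes that act with protocadherins were taken from lists that were chosen with earlier results of these data known. Their counts stand beside the 4.31% of all genes called in the averaged DEX effect. Among 20 measured regulators of the clusters (CTCF, cohesin, DNA and histone methylation genes), 1 was called in the averaged DEX effect: Nipbl, which loads cohesin, rose with a log2 difference of 0.31 (SE 0.09, limma adjusted p 0.0825), and the median of the list was 0.10. In controls Nipbl had 1885 ± 332 normalized counts after saline and 2696 ± 249.2 after DEX (SD, n = 3 each). Of 10 signaling partners, whose median was -0.02, 1 was called: Ptk2b, the kinase PYK2 that clustered protocadherins bind and inhibit, rose by 0.76 (SE 0.15, limma adjusted p 0.00895). Of 9 genes for shedding and cleavage, whose median was -0.03, 1 was called: Aph1b, a subunit of the gamma-secretase that cleaves protocadherins, rose by 0.37 (SE 0.07, limma adjusted p 0.00448).

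Of the 9 genes of the WAVE complex, the 18 classical cadherins and catenins, and the 13 other long cadherin genes such as Fat and Celsr members, 0 were called in the averaged DEX effect, with medians of 0.01, 0.02 and 0.16. In the 3 saline comparisons, 0 genes of any of these 6 lists were called. The other long cadherin genes had the largest median there, 0.59 in PS against control, and their score ranged from -0.46 to 0.08 in con_sal and from 0.09 to 0.36 in PS_sal.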

How the data were processed

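RNA-seq of the DRN was analyzed in 16 libraries grouped by their labels. The authors trimmed reads with fastp 0.20.1, aligned them with HISAT2 2.2.1 to GRCm38 and counted reads per gene with featureCounts (Subread 2.0). The authors deposited normalized counts, a signal made of gene counts divided by 1 DESeq2 1.36.0 size factor per library. Whole reads were recovered for 100% of values (tolerance 0.01), and their number limits the precision. The deposited tables of comparisons (log2 fold changes and p-values) were not used. The sources differ on the RNA reagent and the sequencer, and the strand setting of counting is not given in the sources used here.

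log2(normalized count + 1) was fitted in limma 3.58.1 (R 4.3.3) with a mean for each of 6 groups, 10 residual and 3.88 prior degrees of freedom, and a trend of variance on level. Benjamini-Hochberg adjustment ran over 14504 genes in each of 13 contrasts, and calls were made at an adjusted p under 0.1. Differences on this scale understate changes of low genes. Alternatives were pseudocounts of 0.1 and 10, a mean of at least 100, TMM, edgeR 4.0.16 and DESeq2 1.42.0 on recovered reads, only the groups compared, library weights, a serotonin marker covariate and leaving out each library. The fit was tested on simulated data.

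The text names called members, the leading member of each subgroup per kb, Pcdhac2, Pcdh19, Pcdh10, Pcdh17 and Pcdh9, the 2 members with the smallest p per contrast, and called genes of the pathway lists. The members and lists were chosen with earlier results of these data known.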

Additional observations from a re-analysis of the deposited data

Results flagged for a closer look

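Pcdha9 was picked out because its DEX and saline libraries did not overlap in controls or in PS mice, with opposite signs. It had 191, 233 and 201 normalized counts in con_sal against 244, 260 and 260 in con_dex, and 247 and 281 in PS_sal against 199, 214 and 189 in PS_dex. The difference between the DEX effects was -0.69 on the log2 scale (-0.686, SE 0.25), and it did not pass the test (limma adjusted p 1). Over all genes, 8.51% lay higher after DEX without overlap in controls and 10.1% lower in PS mice.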

How the results depend on the processing

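No paired analysis was possible because the animal numbers in the labels differ between groups. The count of called members in controls after DEX was 1, and 0 with only the groups compared or with library weights. In PS and AS mice library weights gave 1 (Pcdh18) and 3 (Pcdh20, Pcdhb17 and Pcdhb5) in place of 0. In the averaged DEX effect the count of 1 became 2 by DESeq2, 0 after adding the serotonin covariate and 3 under library weights. Leaving out 1 library at a time gave 0 to 2 in controls, 0 to 2 in the average and 0 to 1 in PS against control under saline, where the single call was Pcdh15 without con_sal_102. In the average, Pcdh15 was also called without con_sal_102 and Pcdh18 without PS_dex_6. The cause of these changes was not tested. The level of Pcdhac2 was 893 normalized counts per kb of all exons and 1736 per kb of private exon, since the private length is shorter. Among the alternative values of the main counts and levels, 307 stayed as reported or close to it and the 19 others are those above. No named difference of a single gene changed its sign, but the median over members did with library weights or the serotonin covariate in the averaged DEX effect (0.03 to -0.0039 and -0.0071), in DEX in AS mice and in PS and AS against control under DEX. Among named genes 9 calls were lost and 8 gained over all alternatives. Groups of 2 or 3 libraries limit the precision of every comparison.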
